A study of Capra hircus with 2 samples.

Results

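Basal interfollicular keratinocytes are the innermost cells of the epidermis between the hair follicles. They were taken here from single-cell RNA sequencing of the skin of Liaoning cashmere goats, a breed kept for its fine undercoat. A barcode was counted as a basal keratinocyte when it was in the authors' list of kept cells and had at least 3000 UMIs, the molecular tags that stand for single captured transcripts. KRT14 and KRT5 had to make up at least 75% of the UMIs of KRT14, KRT5, KRT1 and KRT10, and these 4 keratins together had to reach 100 UMIs per 10000. Cells with 3 or more UMIs of the cell cycle genes TOP2A, CENPF, UBE2C and BIRC5 were left out, as were those with 20 or more UMIs per 10000 of KRT6A, 3 or more of SFRP1 and TBX1 together, or 20 or more of KRT35. The rule kept 2408 of 13051 cells, 200 of 3443 in the coarse type library (CT-LCG) and 2208 of 9608 in the fine type library (FT-LCG).

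Both libraries came from scapular skin of healthy goats in anagen, the growth phase of the follicle, with 1 goat and 1 library for each fibre type and no treatment. The skin was digested to a suspension, red cells were lysed and dead cells were removed before droplet capture. Age was not analysed here. The fibre type of each cell was read from the deposited cell list, since the sample labels do not name it. With 1 library a type there is no replicate check, so goat, library and fibre type cannot be told apart and no p-value is given. Intervals below are 95% intervals that cover counting error only.

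In the epidermis, basal keratinocytes sit on the basement membrane and hold the dividing cells of the tissue. Hemidesmosomes, built on the integrin pair ITGA6 and ITGB4 with COL17A1, plectin and dystonin, anchor them to laminin-332, and cells that leave the membrane exchange KRT5 and KRT14 for KRT1 and KRT10 as they move into the spinous layer. The layer also sends signals outward and inward, through Notch ligands, Wnt proteins, growth factors and chemokines such as CCL27, which draws T cells that carry the receptor CCR10 to the skin.

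Of the kept cells, basal keratinocytes were 5.81% for CT-LCG (interval 5.05 to 6.64%) and 23.0% for FT-LCG (22.1 to 23.8%). Among cells with at least 3000 UMIs the shares were 12.8% of 1561 cells and 36.6% of 6033 cells. The step on the keratin share separated the libraries most: it left 246 of 1275 keratin-positive cells in CT-LCG and 3042 of 5437 in FT-LCG. The later limits removed fewer cells, down to 224 and 2744 after the cell cycle genes, 214 and 2604 after KRT6A, and 201 and 2210 after SFRP1 and TBX1. The makeup of the tissue and what digestion released from it cannot be told apart in these shares.

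The basal keratinocytes of CT-LCG were deeper sequenced per cell and fewer. Their median was 12311 UMIs (range 3157 to 67754) and 2877.5 genes, and in FT-LCG the median was 8970.5 UMIs (range 3020 to 115953) and 2289.5 genes. In sum 2569857 UMIs were counted for CT-LCG and 23324511 for FT-LCG, so values of FT-LCG have the narrower counting error. The libraries shared 25 barcodes in all and 11 among kept cells, and 0 among basal keratinocytes.

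The rule's own genes describe the cells. KRT14 and KRT5 were the most abundant genes in both libraries, at 241 and 128 UMIs per 10000 for CT-LCG and 296 and 149 for FT-LCG. Their share of the 4 keratins had a median of 91.7% for CT-LCG and 96.3% for FT-LCG. Only 53 CT-LCG cells (26.5%) reached a share of 95%, against 1367 FT-LCG cells (61.9%), and 22 (11%) and 102 (4.62%) lay below 80%. At the limit itself, KRT10 stood at 50.3 and 70.9 per 10000 in cells with a share of 75 to 80% and at 54.3 and 99.1 in cells just below it, at 70 to 75%. COL17A1 did not step there: it was 6.63 and 5.88 inside and 6.71 and 5.57 outside. CCL27 was lower just inside than just outside in FT-LCG, at 3.34 (3.02 to 3.68) and 9.09 (8.44 to 9.78), while the CT-LCG levels of 4.24 (3.49 to 5.10) and 5.04 (4.17 to 6.04) had intervals that overlap.

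KRT1 and KRT10, the keratins of the spinous layer, were still counted in the basal cells, at 17.0 and 18.7 per 10000 for CT-LCG and 10.7 and 16.1 for FT-LCG. Endothelial cells, which should lack them and were taken as a measure of free RNA (cells with 3 or more UMIs of endothelial markers and under 100 per 10000 of the 4 keratins, 20 cells for CT-LCG and 66 for FT-LCG, median 6415 and 6003.5 UMIs), held 11 and 12.7 for CT-LCG and 2.60 and 4.78 for FT-LCG. Free RNA of KRT1 and KRT10 counts in the keratin share and lowers it. How far this moved the shares above, or the cells in the gate, in either library was not tested. After each cell was thinned to 3000 UMIs, KRT1 had a UMI in 94.5% of CT-LCG basal cells and in 95% of CT-LCG endothelial cells (100% of both without thinning). These shares are close to 100% in both sets, and KRT1 entered the rules of both, so no difference is read from them. In FT-LCG the thinned shares were 76.4% and 62.1% (95.8% and 90.9% without thinning). The FT-LCG endothelial set also carried the hair genes TCHH and KRT25 at 110 and 83.7 per 10000, against 0.37 and 0.60 in basal cells, so it is not a measure of free RNA for hair genes. Whether this set also holds epithelial cells that raise its levels of other genes was not tested.

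The label is described here by 3 markers that the rule did not use. They were chosen with earlier results of these data known, so they do not test it. COL17A1, the transmembrane collagen of the hemidesmosome, was at 7.19 UMIs per 10000 for CT-LCG (6.87 to 7.53) and 8.09 for FT-LCG (7.97 to 8.20). POSTN, which encodes the matricellular protein periostin, was at 14.2 (13.7 to 14.7) and 18.5 (18.4 to 18.7), and CCL27 at 13.8 (13.3 to 14.2) and 24.0 (23.8 to 24.2). Each was far lower in suprabasal keratinocytes, the cells that pass the same limits but have under 25% of the basal keratins (863 in CT-LCG, 1649 in FT-LCG). There COL17A1 was at 0.28 and 0.79, POSTN at 0.28 and 0.76, and CCL27 at 0.15 and 0.52. The 3 markers thus lay on the basal side of the keratin contrast in both libraries, which bears on the basal part of the label only. POSTN and COL17A1 do not set interfollicular cells apart from the follicle, as the values in outer root sheath cells below show.

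**Figure D1:**
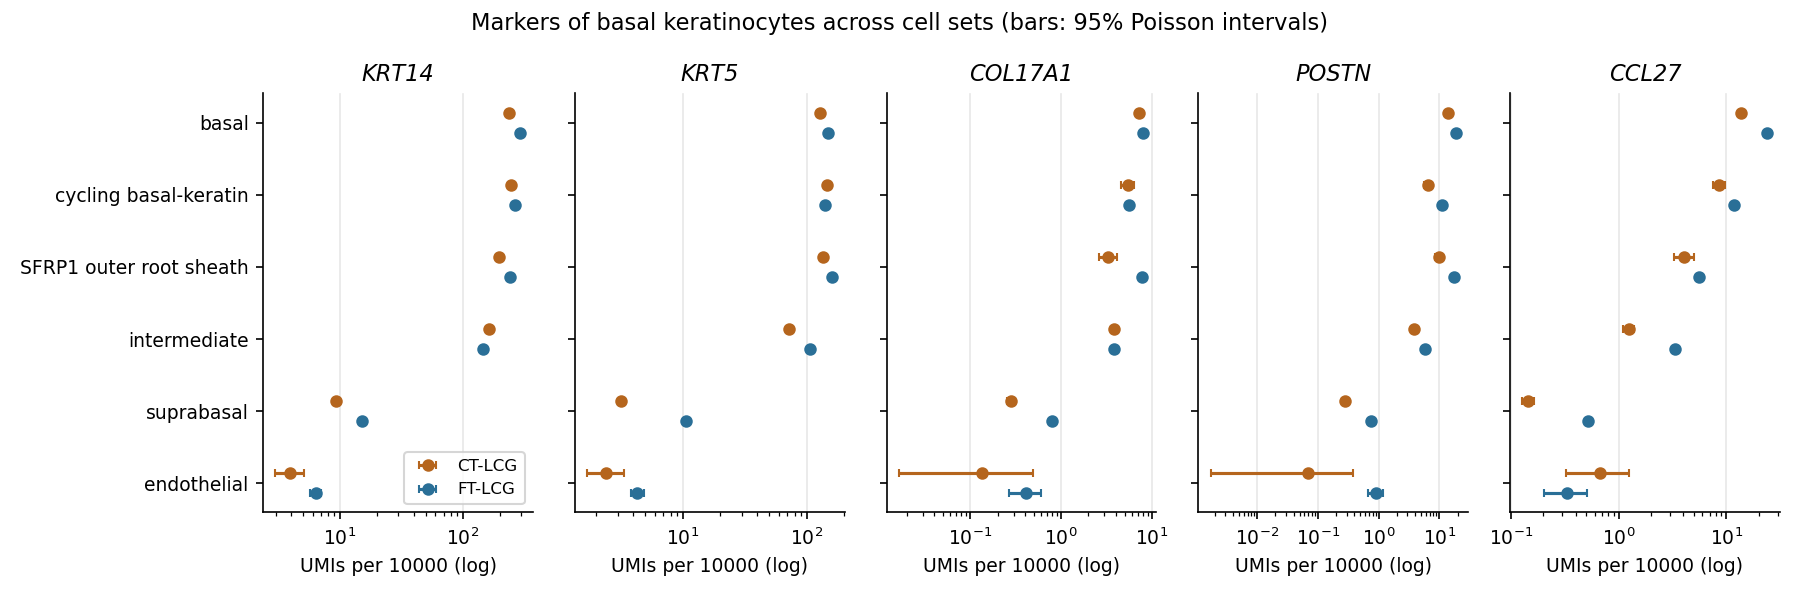
Levels of KRT14, KRT5, COL17A1, POSTN and CCL27 (UMIs per 10000 summed over cells, log axis) in 6 cell sets of CT-LCG (brown) and FT-LCG (blue), with 95% Poisson intervals that cover counting error only. CCL27 is higher in basal keratinocytes (13.8 and 24.0) than in any other set plotted, while the POSTN level of FT-LCG basal keratinocytes (18.5) lies close to that of SFRP1 outer root sheath cells (17.3).

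The 3 markers were not spread alike over single cells. After thinning, COL17A1 had a UMI in 81.5% of CT-LCG and 83.2% of FT-LCG basal cells (94.0% and 95.7% without thinning), with 0 of 20 and 10.6% of endothelial cells. The 0 of 20 allows a share of up to 15.0% by a floor of 3 counts and 16.8% by the exact interval, and without thinning 10% of those cells held a UMI. POSTN was found in 71.5% and 80.3% (0 of 20 and 9.09% of endothelial cells) and CCL27 in 57.5% and 62.4% (15.0% and 9.09%). CCL27 was thus the most uneven of the 3. Its lower quartile over cells was 0 in both libraries, its median 3.94 and 5.23 per 10000, its 90th percentile 46.7 and 71.9, and its highest cell 183 and 437. COL17A1 had medians of 5.00 and 7.41 with 90th percentiles of 16.8 and 16.4.

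Across the cells of a library, after thinning, the correlations among these genes were weak. Their counts were low, with means of 4.01 and 6.03 UMIs a cell for POSTN against 67.5 and 91.1 for KRT14. Low counts weaken such correlations, so independent expression is not read from them. The Spearman correlation of COL17A1 with POSTN was 0.21 over 200 CT-LCG cells and 0.27 over 2208 FT-LCG cells, and that of POSTN with CCL27 was 0.14 and 0.28. CCL27 ran against KRT10 at -0.30 and -0.22. The keratins of the rule ran together, KRT14 with KRT5 at 0.76 and 0.60 and KRT1 with KRT10 at 0.43 and 0.45. KRT14 and CCL27 differed in sign between the libraries, at -0.15 for CT-LCG and 0.33 for FT-LCG. Cells of 1 library share their source and free RNA, so these values are descriptions with no p.

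Grouping the cells by their share of basal keratins showed how the genes outside the rule ordered themselves along it. The bins ran from under 25% (suprabasal cells) through 25 to 75% (intermediate cells) to 75 to 85% (48 CT-LCG and 218 FT-LCG cells), 85 to 95% (99 and 623) and 95% or more (53 and 1367). In FT-LCG, CCL27 stood at 0.52, 2.57, 4.13, 3.90, 11.5 and 31.6 per 10000 from the lowest to the highest bin. In CT-LCG it stood at 0.15, 0.60, 2.00, 5.29, 15.5 and 16.5. CCL27 thus stood highest above a share of 85%, and in FT-LCG it was no higher at 75 to 85% than at 50 to 75%. POSTN was at 0.28, 2.85, 5.08, 8.41, 15.1 and 16.6 in CT-LCG and at 0.76, 4.02, 7.62, 11.9, 16.7 and 20.3 in FT-LCG, a gradual order. COL17A1 stood at 6.64 (5.96 to 7.39), 6.90 (6.45 to 7.37) and 8.02 (7.41 to 8.67) in the 3 upper bins of CT-LCG. In FT-LCG it still rose over these bins, at 5.95 (5.64 to 6.26), 7.77 (7.54 to 8.01) and 8.54 (8.39 to 8.69).

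WNT10A, a Wnt ligand, was also highest in the highest bin. Its level in the 3 upper bins was 0.08, 0.17 and 0.80 in CT-LCG, where the first rests on few UMIs, and 0.20, 0.47 and 0.71 in FT-LCG. JAG2, a Notch ligand, stood at 0.29, 0.43 and 0.70 and at 0.38, 0.61 and 0.77. In suprabasal cells JAG2 was at 0.05 and 0.09, and in endothelial cells at 0.41 and 0.46. THY1, a cell surface glycoprotein, stood at 0.33, 0.40 and 0.67 and at 0.41, 0.66 and 0.83. S100A2, a calcium-binding protein of basal epidermis, did not follow that order. It was highest at 75 to 85% in both libraries (76.1 and 92.7) and lower at 95% or more (47.6 and 82.2). KRTDAP, SBSN and DSG1, genes of the differentiating layers, fell along the bins, DSG1 from 8.99 to 3.18 in CT-LCG and from 7.55 to 2.57 in FT-LCG.

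**Figure D2:**
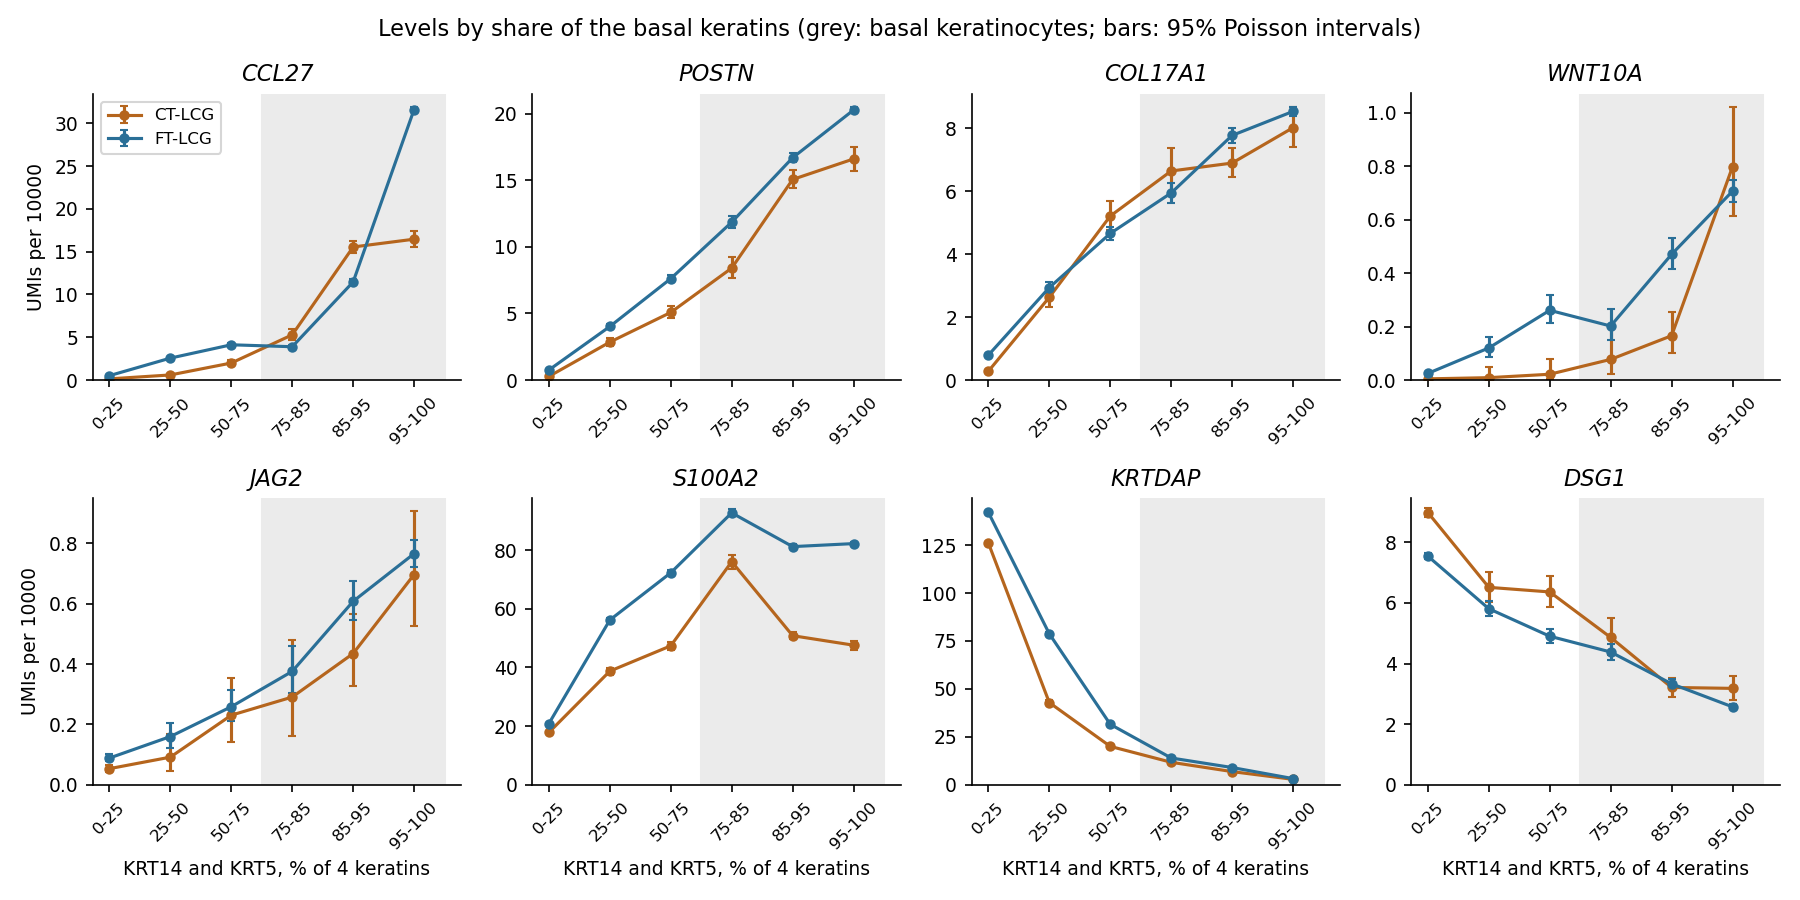
Levels of 8 genes (UMIs per 10000) in cells grouped by the share of KRT14 and KRT5 among the 4 keratins, in CT-LCG (brown) and FT-LCG (blue), with 95% Poisson intervals. The grey bins are the basal keratinocytes. CCL27 reaches 31.6 in the highest FT-LCG bin, and S100A2 peaks at 75 to 85% in both libraries (76.1 and 92.7).

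Compared with suprabasal cells in the same library, 712 of 9925 genes were at least 2-fold higher in basal keratinocytes in both libraries (7.17%) and 671 were at least 2-fold lower in both (6.76%). A gene was compared when it had at least 50 UMIs over the 2 cell sets in each library, and ratios were taken after adding 0.5 UMI to each sum. The median log2 ratio over all genes was 0.09 for CT-LCG and 0.15 for FT-LCG. With these medians taken out, 589 genes were higher and 779 lower. Since the keratins that define both cell sets chose the contrast, these counts and the ones by gene group are descriptions, and a low gene could enter only through the set where it is high.

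CCL27 led the genes higher in basal keratinocytes, with log2 ratios of 6.56 (6.38 to 6.76) in CT-LCG and 5.52 (5.44 to 5.60) in FT-LCG. The next by the smaller of the ratios were SCUBE2, CDH13, DLK2, LAMB3, ACKR4, TNS4, SERPINH1, LOC102179515 and ITGB4. SCUBE2, a secreted protein that helps release hedgehog ligands, was at 0.22 and 0.45 per 10000 against 0.0006 (1 UMI) and 0.01, so its CT-LCG ratio of 7.98 had an interval of 6.02 to 13.88. DLK2, a relative of the Notch ligands, was at 0.23 and 0.65 against 0.002 and 0.02, and CDH13, a cadherin without an intracellular part, at 0.21 and 0.51 against 0.005 and 0.01. ACKR4, a chemokine receptor that scavenges its ligands, was at 0.27 (0.21 to 0.34) and 0.28 (0.26 to 0.30), with intervals that overlap between the libraries. TNS4, a tensin of focal adhesions, was at 1.60 and 3.31 against 0.02 and 0.11. SERPINH1, a chaperone of collagens, was at 0.46 and 0.71 against 0.01 and 0.02. Endothelial cells held more than basal cells of CDH13 (0.95 and 2.41) and of SERPINH1 (1.02 and 1.67). LOC102179515, which the reference table gives no other name, was the most abundant of the 10 genes, at 18 and 42 against 0.23 and 1.45.

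Most anchoring genes were higher. Of 9 genes of the hemidesmosome and laminin-332, all with enough UMIs, 8 were past the 2-fold level in both libraries (88.9%, against 7.17% of all genes) and 0 were lower (against 6.76%). DST, which ties the hemidesmosome to keratin, was at 2.26 and 2.77 per 10000 in basal cells against 0.12 and 0.17 in suprabasal cells. ITGA6 was at 1.56 and 1.49 against 0.17 and 0.11, and its partner ITGB4 at 0.70 and 1.42 against 0.01 and 0.05. The laminin chains LAMA3 and LAMB3 had log2 ratios of 2.46 and 3.07, and of 5.48 and 5.08. PLEC passed narrowly, at 1.02 and 1.16. The exception was the tetraspanin CD151, at 0.45 and 0.31. ITGB4 was not particular to keratinocytes, since endothelial cells held 2.98 and 2.85 per 10000.

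Of 22 basement membrane and matricellular genes listed, 20 were in the files and 8 had enough UMIs in both libraries. Higher in basal keratinocytes were POSTN, SPARC, THBS1, COL7A1, COL4A5, COL4A6 and LAMC1 (87.5%, against 7.17%), and 0 were lower (against 6.76%). SPARC, a collagen-binding matricellular protein, was at 2.22 and 2.88 per 10000 against 0.39 and 0.34. COL7A1, the collagen of the anchoring fibrils, was at 0.46 and 0.51 against 0.02 and 0.04. FRAS1 had ratios of 0.90 and 0.69. Of the rest, NID1, NID2, FREM1, FREM2 and FN1 had 0 UMIs in CT-LCG basal cells and 1 to 15 in FT-LCG. Among 8 other integrins, 6 had enough UMIs, of which 5 were higher (83.3%, against 7.17% of all genes) and 0 lower (against 6.76%). ITGB1, the common beta chain, was at 1.51 and 1.75 against 0.50 and 0.49, ITGA2, ITGB5, ITGB6 and ITGB8 were also past the 2-fold level, and ITGAV was not, at 0.35 and 1.15.

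**Figure D3:**
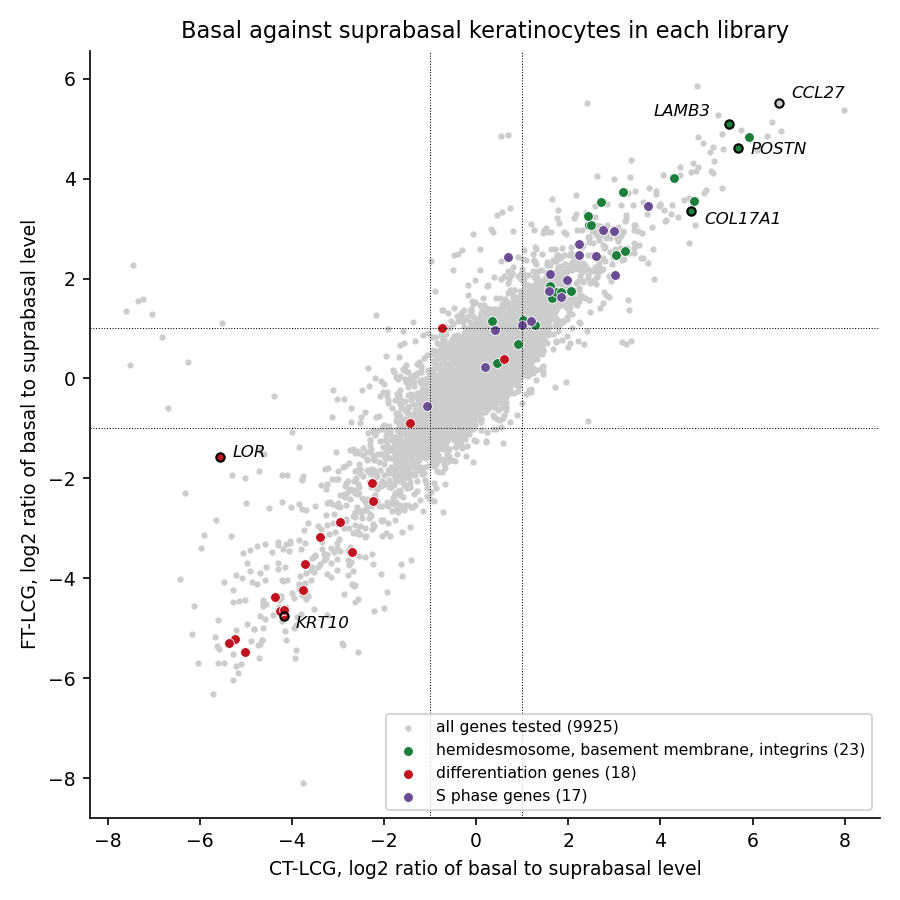
Log2 ratio of the basal to the suprabasal level in CT-LCG (x axis) and FT-LCG (y axis) for 9925 genes (grey), with anchoring genes (green), differentiation genes (red) and S phase genes (violet). Dotted lines mark a 2-fold difference. CCL27, POSTN and LAMB3 lie far up in both libraries, and LOR lies at -5.55 in CT-LCG, where 1 suprabasal cell held 93.3% of its UMIs, and at -1.56 in FT-LCG, where 1 basal cell held 79.8%.

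The genes of the differentiating layers went the other way. Of 18 differentiation genes in the files, 15 were at least 2-fold lower in both libraries (83.3%, against 6.76% of all genes) and 0 were higher (against 7.17%). KRT1 and KRT10 are 2 of the 15 and were fixed by the rule, which leaves 13 of 16. KRT2 was at 0.21 and 0.15 per 10000 against 7.84 and 5.57, KRTDAP at 6.57 and 5.67 against 126 and 142, and SBSN at 12.4 and 12.1 against 96.7 and 88.7. The 3 others were TGM3 (-0.74 and 1.01), LY6D (0.60 and 0.38) and S100A8 (-1.44 and -0.88). Over all genes the lower end was led by KRT4, a keratin best known from mucosal epithelium, at 0.07 and 0.04 against 3.78 and 2.93. SPINK7, a protease inhibitor, was at 2.30 and 0.68 against 89.4 and 44.4. SERPINE2 was at 0.05 and 0.03 against 2.41 and 1.04, and LYPD2 at 0.07 and 0.03 against 2.79 and 1.17. SERPINA12 was at 0.02 and 0.01 against 0.80 and 0.61. IVL, involucrin of the cornified envelope, had 1 UMI in CT-LCG basal cells, with a log2 ratio of -5.36 (-11.25 to -3.46), and -5.28 (-5.70 to -4.92) in FT-LCG. LOC102172768, LOC102181045, FAIM2 and SERPINB7 had no UMI in CT-LCG basal cells. Against a floor of 3 UMIs over the 200 cells they were at least 10.9, 8.10, 7.34 and 7.95-fold lower there, and FT-LCG basal cells held 6, 1, 2 and 4 UMIs of them.

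Genes of cell to cell adhesion went both ways. Of 10 desmosome genes with enough UMIs, DSG2 (3.20 and 2.39) and DSG3 (3.43 and 2.52), the cadherins of the lower epidermis, were higher. DSG1 (-1.35 and -1.36) and DSC1 (-1.86 and -2.17), those of the upper epidermis, were lower. Each pair is 20% of the list, against 7.17% higher and 6.76% lower of all genes. The plaque genes DSP (-0.98 and -1.02) and JUP (-0.94 and -0.93) did not reach 2-fold in both. Of 14 other adhesion and junction genes, CDH3, P-cadherin, was higher (3.59 and 2.40), as was GJB6 (2.13 and 3.22), a connexin. That is 14.3%, against 7.17% of all genes. NECTIN4, CLDN4 and SDC1 were lower (21.4%, against 6.76%). CDH1, E-cadherin, was at 1.31 and 1.02 against 1.93 and 1.27 and was not past the 2-fold level.

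Of 20 transcription factors with enough UMIs, 3 were higher (15%) and 4 lower (20%), against 7.17% and 6.76% of all genes. SOX6 (2.33 and 2.18), SOX15 (1.55 and 1.46) and NFIB (1.08 and 1.59) were higher, and KLF4 (-1.19 and -1.22), ID2 (-1.42 and -1.04), GRHL1 (-1.74 and -1.50) and GRHL3 (-3.0 and -2.49), of which KLF4, GRHL1 and GRHL3 are known for differentiation and barrier genes, were lower. TP63, the regulator of stratified epithelia, was at 0.88 in both libraries against 0.50 and 0.28. That is 0.80 and 1.66 on the log2 scale, so CT-LCG did not reach 2-fold. TP63 had a UMI in 23.5% and 24.0% of thinned basal cells (58.5% and 51.7% without thinning), against 0 of 20 and 3.03% of endothelial cells.

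In the Notch list, the ligands DLL1 (2.81 and 2.97) and JAG2 (3.19 and 2.96) were higher in basal keratinocytes, and the receptor NOTCH3 (-1.21 and -1.08) was lower, of 9 genes with enough UMIs (22.2% and 11.1%, against 7.17% and 6.76% of all genes). JAG1 was at 0.49 and 0.44 against 0.34 and 0.30 and NOTCH1 at 0.22 and 0.39 against 0.22 and 0.34, neither past the 2-fold level. In the Wnt list, 4 of 15 were higher (26.7%, against 7.17%) and 0 lower (against 6.76%). WNT10A was at 0.34 and 0.60 against 0.005 and 0.03, WNT3 at 0.80 and 0.79 against 0.27 and 0.34, the receptor FZD7 at 0.11 and 0.15 against 0.05 and 0.05, and AXIN2, a target of the pathway, at 0.12 and 0.14 against 0.06 and 0.06. WNT10A had no UMI in any of the endothelial cells.

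In the TGF-beta and BMP list, 6 of 15 were higher (40%, against 7.17% of all genes) and 0 lower (against 6.76%). TGFB1 (2.15 and 2.37), TGFB2 (1.28 and 2.63), the receptor TGFBR2 (1.24 and 1.80), BMP4 (1.63 and 2.59), the signal transducer SMAD3 (2.20 and 2.39) and the secreted matrix protein TGFBI (2.51 and 2.47) made up this group. Of 18 receptors and ligands of the EGF, FGF, IGF and MET families, the receptors FGFR1 (1.76 and 2.47) and IGF1R (1.45 and 1.61) and the IGF-binding proteins IGFBP3, IGFBP5, IGFBP6 and IGFBP7 were higher (33.3%, against 7.17%). IGFBP6 was at 0.98 and 1.06 against 0.03 and 0.04, and IGFBP5 at 0.93 and 0.94 against 0.04 and 0.08. Lower were 4 EGF receptor ligands (22.2% of the list, against 6.76%), namely AREG (-1.98 and -1.37), EREG (-3.25 and -3.60), HBEGF (-1.75 and -1.98) and BTC (-2.28 and -2.16). A further ligand, TGFA, was at 0.05 and 0.07 against 0.11 and 0.08 and was not past the 2-fold level. EGFR itself was at 0.31 and 0.44 against 0.24 and 0.26.

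**Figure D4:**
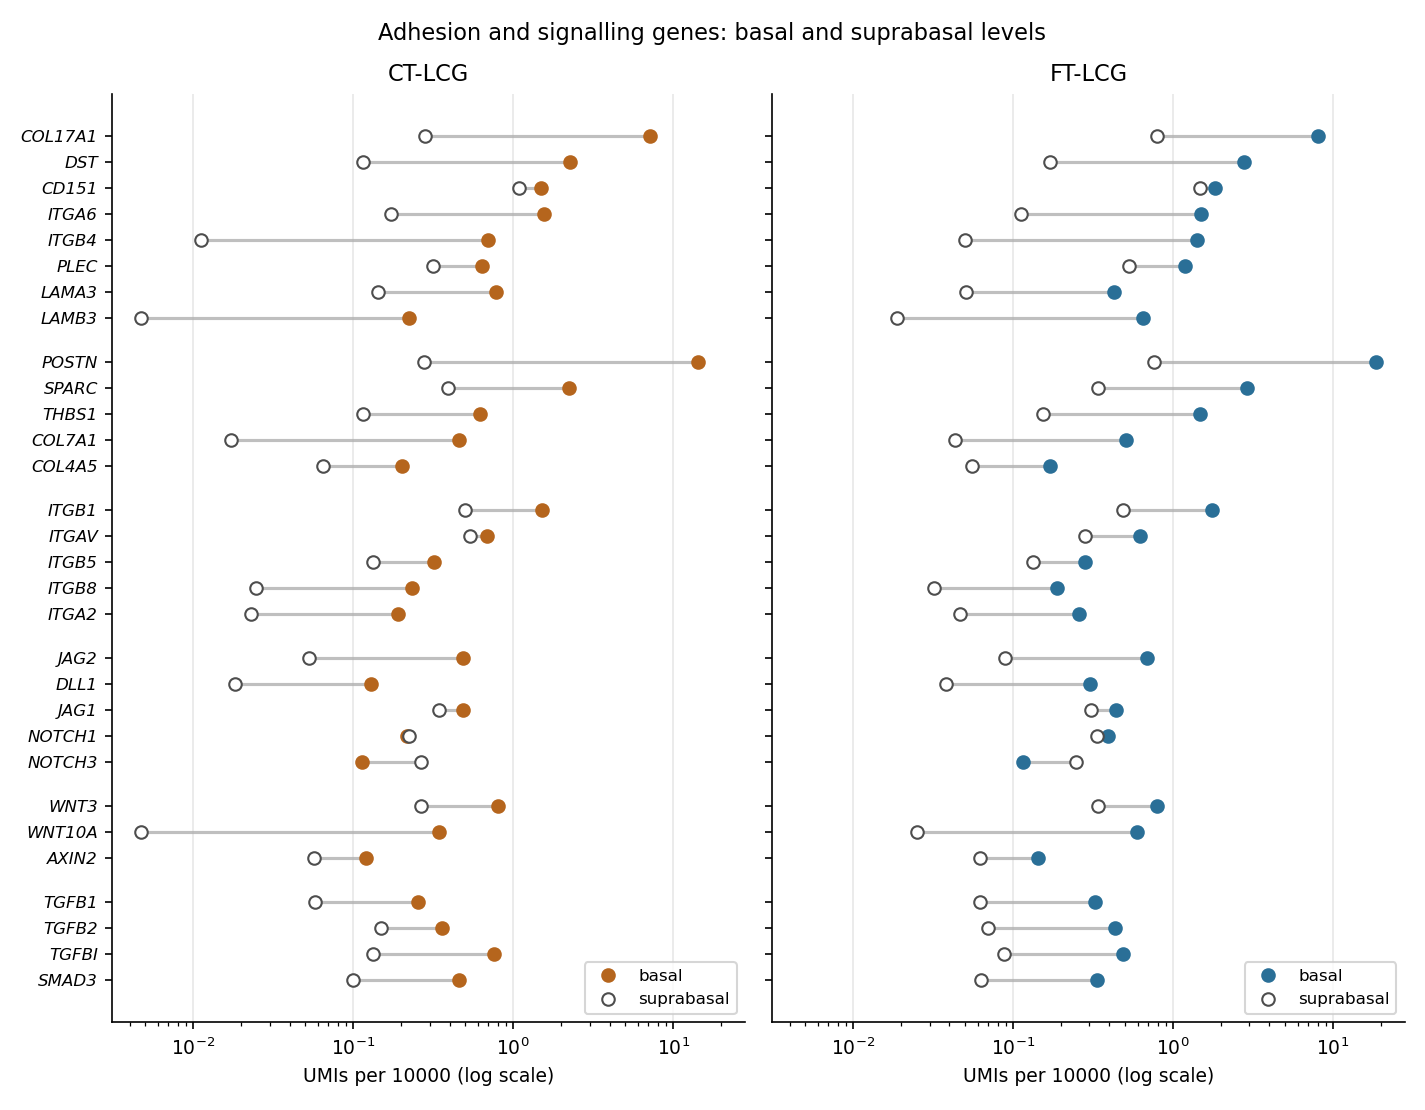
Levels (UMIs per 10000, log axis) of genes of the hemidesmosome, basement membrane, integrin, Notch, Wnt and TGF-beta lists in basal (filled) and suprabasal keratinocytes (open) of CT-LCG (left) and FT-LCG (right). Most genes lie higher in basal cells, such as WNT10A at 0.34 and 0.60 against 0.005 and 0.03. CD151, ITGAV, JAG1 and NOTCH1 have nearby values in at least 1 library, and NOTCH3 lies lower.

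Of 9 chemokines and cytokines with enough UMIs, CCL27 was higher and CCL20, which draws CCR6-positive cells, was lower (-2.76 and -1.69). Each is 11.1% of the list, against 7.17% higher and 6.76% lower of all genes, so these counts are not a result about the list. CXCL8 and CXCL14 differed between the libraries, at -0.97 and 2.34 and at 0.46 and 3.27. Without cells of either set that held 3 or more UMIs of other cell types' markers, left out after the data had been seen, CXCL8 was at -0.95 and 0.97, under 2-fold in both, and CXCL14 at 0.50 and 3.15. Of 16 S100 and small epidermal genes, S100A2 (1.62 and 1.99), S100A4, S100A10, LGALS1 and ADIRF (3.99 and 3.46) were higher (31.25%, against 7.17% of all genes). The water channel AQP3 (-1.12 and -1.33) was lower, and its 6.25% of the list is near the 6.76% of all genes. LGALS7, a galectin of stratified epithelia, was among the 10 most abundant genes, at 68.5 and 94.5, and higher still in suprabasal cells, at 88.7 and 137. The other most abundant genes were LOC102168701, TPT1 and ribosomal genes such as RPLP1, RPS12 and RPS19 in both libraries, with RPS24 in CT-LCG and S100A2 in FT-LCG.

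Of 17 S phase genes with enough UMIs, 12 were at least 2-fold higher (70.6%, against 7.17% of all genes) and 0 were lower (against 6.76%). Cells with 3 or more UMIs of the 4 cycle genes were outside both sets, but cells with 1 or 2 stayed in, and UBE2C was at 0.09 and 0.07 per 10000 in basal cells. HELLS (3.73 and 3.45), GINS2 (3.02 and 2.08), CDT1 (2.99 and 2.95), RRM2 (2.76 and 2.96) and MCM2 (2.24 and 2.47), of which MCM2, CDT1 and GINS2 serve the loading and start of the replication fork, were among them, and CCND2, a G1 cyclin, was at 0.80 and 1.43 against 0.13 and 0.26. PCNA was at 1.57 and 0.94 against 1.18 and 0.48 and was not past the 2-fold level. MKI67 had 7 and 47 UMIs. CDKN1C (2.20 and 1.94) was higher and CDKN2B (-1.52 and -1.97) lower of 5 inhibitors of the cycle. Each is 20% of that list, against 7.17% and 6.76% of all genes, and in so small a list 1 gene sets the share. Among 24 immediate early and heat shock genes, 0 were higher (against 7.17% of all genes) and NR4A1 alone was lower (-1.20 and -1.06). That is 4.17%, against 6.76% of all genes, so neither count is a result about the list. FOS and JUN, both in this list, had a Spearman correlation across cells of 0.77 and 0.65.

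The other lists held 1 or 2 genes past the 2-fold level. KRT19 was higher (4.12 and 3.16) of 2 stress and wound keratins (50%, against 7.17% of all genes), where KRT6A was limited by the rule. CRABP2, a carrier of retinoic acid, was lower (-1.48 and -1.46) of 7 genes of retinoid, vitamin D and steroid signalling (14.3%, against 6.76% of all genes). IFI6 and IRF1 were higher of 9 MHC and interferon genes (22.2%, against 7.17%). In lists this small 1 gene sets the share.

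The neighbouring cell sets with basal keratins were compared next. Outer root sheath cells, those of the same keratin share with 3 or more UMIs of SFRP1 and TBX1 per 10000, numbered 21 for CT-LCG and 483 for FT-LCG. Against them, 170 of 5157 genes were at least 2-fold higher in basal keratinocytes in both libraries (3.3%) and 150 at least 2-fold lower (2.91%). Among the higher genes, CCL20 was at 2.31 and 6.19 against 0.50 and 1.30, FCGBP at 3.65 and 4.66 against 0.82 and 0.81, and TFAP2C, a transcription factor of epidermis, at 0.67 and 0.79 against 0.14 and 0.20. Their CT-LCG outer root sheath levels rest on 11, 18 and 3 UMIs over 21 cells. These genes thus reached the count minimum in CT-LCG through the basal cells, where they are high. CCL27 was at 13.8 and 24.0 against 4.09 and 5.59. The metalloproteinases MMP1, MMP3 and MMP7 led by ratio, but CT-LCG outer root sheath cells had 0 UMIs of each, and 1 basal cell held 61.3% of the MMP7 UMIs of CT-LCG.

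Lower in basal keratinocytes than in outer root sheath cells were KRT6A and SFRP1, both used by the rule, and SHISA2, SDC2, TIMP3, TAGLN, BGN, TPM1, PGLYRP1 and CXCL14. TPM1, a tropomyosin, was at 0.23 and 0.34 against 6.90 and 4.54, the matrix proteoglycan gene BGN at 0.05 and 0.19 against 1.77 and 2.68, and the protease inhibitor TIMP3 at 0.06 and 0.12 against 2.59 and 2.18. Of 9 hemidesmosome genes 0 were past the 2-fold level in both libraries in either direction, and of 6 basement membrane genes 3 were lower than in outer root sheath cells and 0 higher, against 3.3% higher and 2.91% lower of all genes. At these shares 0 of 9 is not a result about the hemidesmosome genes. COL17A1 was at 7.19 against 3.32 (2.60 to 4.17) in CT-LCG and at 8.09 against 7.86 in FT-LCG.

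Cycling cells with the same keratin share and 3 or more UMIs of the 4 cycle genes numbered 19 for CT-LCG and 264 for FT-LCG. Only 6 of 5222 genes were higher in basal keratinocytes (0.115%), among them MMP7, GNG11, LOC102184404, LOC102170937 and SPP1, and 83 were lower (1.59%). MMP7, GNG11 and SPP1 had 0 UMIs in the 19 CT-LCG cycling cells, so they reached the count minimum there through the basal cells alone. Beside CENPF, TOP2A and UBE2C, which the rule used, NUSAP1, SPC24, PRC1, KIAA0101, PTTG1 and STMN1 were lower. STMN1, a microtubule regulator, was at 0.38 and 0.63 against 5.66 and 8.75. CCL27 was at 13.8 against 8.63 (7.59 to 9.78) in CT-LCG and 24.0 against 11.9 (11.6 to 12.2) in FT-LCG, and POSTN at 14.2 against 6.53 and 18.5 against 10.9.

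Between the libraries, 660 of 11034 genes were at least 2-fold higher in CT-LCG basal keratinocytes (5.98%) and 855 at least 2-fold higher in FT-LCG (7.75%), with a median log2 ratio of CT-LCG to FT-LCG of 0.02. Genes with at least 50 UMIs over both libraries were compared. Many of these differences were not confined to basal cells. Of 626 genes higher in CT-LCG that could also be compared in suprabasal cells, 405 were past the 2-fold level there too (64.7%, and 48.7% of the 832 such genes of suprabasal cells). For FT-LCG the number was 233 of 627 (37.2%, and 55.9% of 417).

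The largest ratios were those of features without a name, and some but not all of them had the same direction in other cell sets. LOC102178422 was at 1.40 UMIs per 10000 for CT-LCG and 0.01 for FT-LCG basal cells, and at 0.96 and 0.008 in suprabasal cells. LOC108633505 was at 15.6 and 0.56 in basal, 17.8 and 0.49 in suprabasal and 25.3 and 1.12 in endothelial cells. In the other direction, LOC102180443 was at 0.17 and 14.9 in basal, 0.12 and 10.6 in suprabasal and 0.07 and 11.4 in endothelial cells. It had a UMI in 99.8% of FT-LCG basal cells and 19.0% of CT-LCG ones without thinning. Further features higher in CT-LCG were LOC102169149, LOC102185917, LOC108633164, LOC102182848, LOC102171558 and LOC102174170, with log2 ratios of 3.04 to 4.29. LOC102189356 and LOC106503915, higher in FT-LCG basal cells, were higher in CT-LCG in endothelial cells, at 16.2 and 1.88 and at 14.9 and 1.62. LOC102185235, LOC108635596 and LOC108635658, also higher in FT-LCG basal cells, were higher in CT-LCG in suprabasal cells (3.58, 2.97 and 3.32), and the CT-LCG suprabasal level of each rests on 1 cell, as does its FT-LCG basal level.

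Of named genes, S100A8, a calcium-binding protein induced in stressed epidermis, was at 7.30 for CT-LCG (6.97 to 7.64) and 0.52 for FT-LCG (0.49 to 0.55). It was also higher in CT-LCG suprabasal cells, at 19.8 and 0.95, and 5 cells held 49.8% of its CT-LCG basal UMIs. MMP3 was at 0.52 and 0.04, with 5 cells holding 70.1% of the CT-LCG UMIs. ID2, an inhibitor of helix-loop-helix factors, was at 1.58 and 0.36, the Notch target HEY1 at 0.14 and 0.02, BMP2 at 1.14 and 0.38, SMAD7, an inhibitor of TGF-beta signals, at 0.57 and 0.18, and the co-chaperone DNAJA1 at 9.60 and 3.16. ID2 and DNAJA1 were higher in CT-LCG suprabasal cells too. There ID2 had 7179 and 1794 UMIs and DNAJA1 13409 and 5838, of 16925491 and 24320860 UMIs in all. In the TGF-beta and BMP list, 4 of 18 genes were higher in CT-LCG (22.2%, against 5.98% of all genes) and 1, FST, in FT-LCG (5.56%, against 7.75%).

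In FT-LCG, chemokines and cytokines were the pathway list with the largest share of genes past the 2-fold level, 6 of 10 compared (60%, against 7.75% of all genes, and 1 was higher in CT-LCG), with a median log2 ratio of -1.22. CXCL14, a chemokine made by epithelia, was at 0.35 for CT-LCG (90 UMIs in 38 cells) and 3.12 for FT-LCG (7271 UMIs in 925 cells). In thinned cells it had a UMI in 8.50% and 24.8% (19.0% and 41.9% without thinning), against 10.0% and 12.1% of endothelial cells. The CT-LCG background is 2 of 20 cells, with an interval of 1.23 to 31.7%, so the CT-LCG share cannot be placed above or below it. CCL20 was at 2.31 and 6.19, with 5 cells holding 59.9% of the CT-LCG UMIs, IL34 at 0.26 and 0.71, and IL1A at 0.04 and 0.20. CXCL8, which draws neutrophils, was at 0.04 and 1.03, but it had UMIs in only 163 of 2208 FT-LCG cells.

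A small number of FT-LCG cells decided several of these values. Markers of macrophage, dendritic and Langerhans cells summed to 0.07 per 10000 for CT-LCG and 0.94 for FT-LCG basal cells, led by CD74 at 0.06 and 0.77, and CD207, a defining gene of Langerhans cells, had 0 UMIs in CT-LCG. Without the 88 FT-LCG cells and 7 CT-LCG cells that held 3 or more UMIs of such other-type markers, CXCL8 was at 0.04 and 0.11 and CCL5 at 0.004 and 0.01. LOC102189356 and LOC106503915, at 0.99 and 1.00 in all FT-LCG cells, came to 0.05 each, and LOC102180880 went from 0.21 to 0.008. CXCL14 (0.34 and 2.73), CCL20 (2.39 and 6.40) and CCL27 (13.6 and 24.5) kept a log2 ratio of -2.99, -1.42 and -0.85. CD74 came to 0.04 and 0.05, but it is one of the markers by which the cells were left out. The parathyroid hormone-like gene PTHLH was at 0 UMIs for CT-LCG, with 237 UMIs in 77 FT-LCG cells, at least 8.70-fold higher in FT-LCG against a floor of 3 UMIs over the CT-LCG cells, and stayed at 0.10 without those cells.

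Markers of most cell types outside the epithelium were near 0 in the basal keratinocytes. Fibroblast markers summed to 0.14 and 0.11 per 10000, endothelial markers to 0.03 and 0.05, T cell markers to 0.004 and 0.02, mast cell markers to 0.04 and 0.36 with SRGN as the leading gene, melanocyte markers to 0.15 and 0.24, and Merkel cell markers to 0.004 and 0.002. Muscle and pericyte markers came to 0.13 and 0.22, and sweat gland and luminal markers to 0.44 and 0.74, mostly KRT19. Markers of the skin's other epithelial cells were higher. Sebaceous markers stood at 3.30 and 3.53, nearly all MGST1, which suprabasal cells shared (5.01 and 4.91 for the list). Hair matrix, cortex and inner root sheath markers stood at 2.65 and 1.94, led by TCHH in CT-LCG (0.98) and KRT25 in FT-LCG (0.60), and outer root sheath and bulge markers at 2.96 and 5.88, led by NFIB. ALAS2, the erythrocyte gene found in the files, was at 0 in both.

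Granular layer markers summed to 2.85 for CT-LCG and 14 for FT-LCG, against 35.9 and 151 in suprabasal cells. CST6, a protease inhibitor of the upper epidermis, was at 1.72 and 10.2 in basal and 22.7 and 134 in suprabasal cells, a log2 ratio of -3.72 in each library. Endothelial cells held 2.44 and 7.69, more than the basal cells of CT-LCG. In FT-LCG 1 basal cell held 31.7% of the CST6 UMIs, and without it the level was 6.98, below that of the endothelial cells. LOR, loricrin of the cornified envelope, was at 0.16 and 2.39, but 1 FT-LCG cell held 4445 of its 5572 UMIs, and without that cell the FT-LCG level was 0.48 and the log2 ratio to suprabasal cells -3.87. In CT-LCG 1 suprabasal cell held 11937 of 12789 LOR UMIs, and without it the ratio was -1.65. Without both the CST6 and the LOR cell, left out after the data had been seen, the granular sum of FT-LCG basal cells was 8.83.

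The difference in CCL27 depended on which cells were compared. Over all basal keratinocytes it was lower in CT-LCG, with a log2 ratio of -0.80 (-0.85 to -0.75). Among cells with a keratin share of 75 to 85% it was higher in CT-LCG, at 5.29 against 3.90 (0.44, interval 0.24 to 0.64), and likewise at 85 to 95%, at 15.5 against 11.5 (0.44, 0.37 to 0.51). These levels rest on few cells: in CT-LCG 5 cells held 65.6% of the CCL27 UMIs of the 48 cells in the first bin and 36.3% of those of the 99 cells in the second. Without the highest cell of each library, left out after the data had been seen, the log2 ratios were 0.17 (-0.05 to 0.39) and 0.31 (0.23 to 0.39), so the first interval then included 0. Without the 5% of cells with the most CCL27 UMIs in each bin and library they were 0.38 (0.09 to 0.64) and 0.66 (0.57 to 0.75). Of the 3 basal bins it was lower in CT-LCG at 95% or more, at 16.5 against 31.6 (-0.94, -1.02 to -0.86), and that bin holds 26.5% of CT-LCG but 61.9% of FT-LCG cells. In it 5 of the 53 CT-LCG cells held 48.8% of the CCL27 UMIs. The same leave-outs gave -1.15 (-1.24 to -1.07) without the highest cells and -1.07 (-1.17 to -0.97) without the 5%. Below the basal range CCL27 was also lower in CT-LCG (-1.84, -2.08 and -1.04 from the lowest bin up). POSTN was lower in CT-LCG in each of these bins (-0.49, -0.15 and -0.29), and so was S100A2 (-0.29, -0.68 and -0.79). COL17A1 had log2 ratios of 0.16, -0.17 and -0.09.

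Of 30 anchoring genes compared (hemidesmosome, basement membrane and integrin lists), 7 were higher in FT-LCG (23.3%, against 7.75% of all genes) and 1 in CT-LCG (3.33%, against 5.98%). Those higher in FT-LCG were ITGB4 (0.70 and 1.42), LAMB3 (0.22 and 0.65), THBS1 (0.62 and 1.47), COL4A1, COL4A2, BGN and ITGA3. TNC, at 0.05 and 0.03 with 14 and 65 UMIs, was the one higher in CT-LCG, with a log2 ratio of 1.01 that was 0.74 without its highest cell in each library. The connexin GJB6 was at 0.18 and 0.77, SOX9, a transcription factor of the outer root sheath, at 0.34 and 1.96, and the nuclear receptor NR4A1 at 0.34 and 2.26. SOX9 and NR4A1 were higher in FT-LCG suprabasal cells too. There SOX9 had 783 and 2983 UMIs and NR4A1 1323 and 11455, of 16925491 and 24320860 UMIs in all. ADIRF was at 5.38 and 13.9 and S100A4 at 1.07 and 3.48. Of 18 S phase genes 2 were higher in CT-LCG, the cyclins CCNE1 (34 and 51 UMIs) and CCNE2 (27 and 64), and 0 in FT-LCG. That is 11.1%, against 5.98% of all genes, and 0 against 7.75%.

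**Figure D5:**
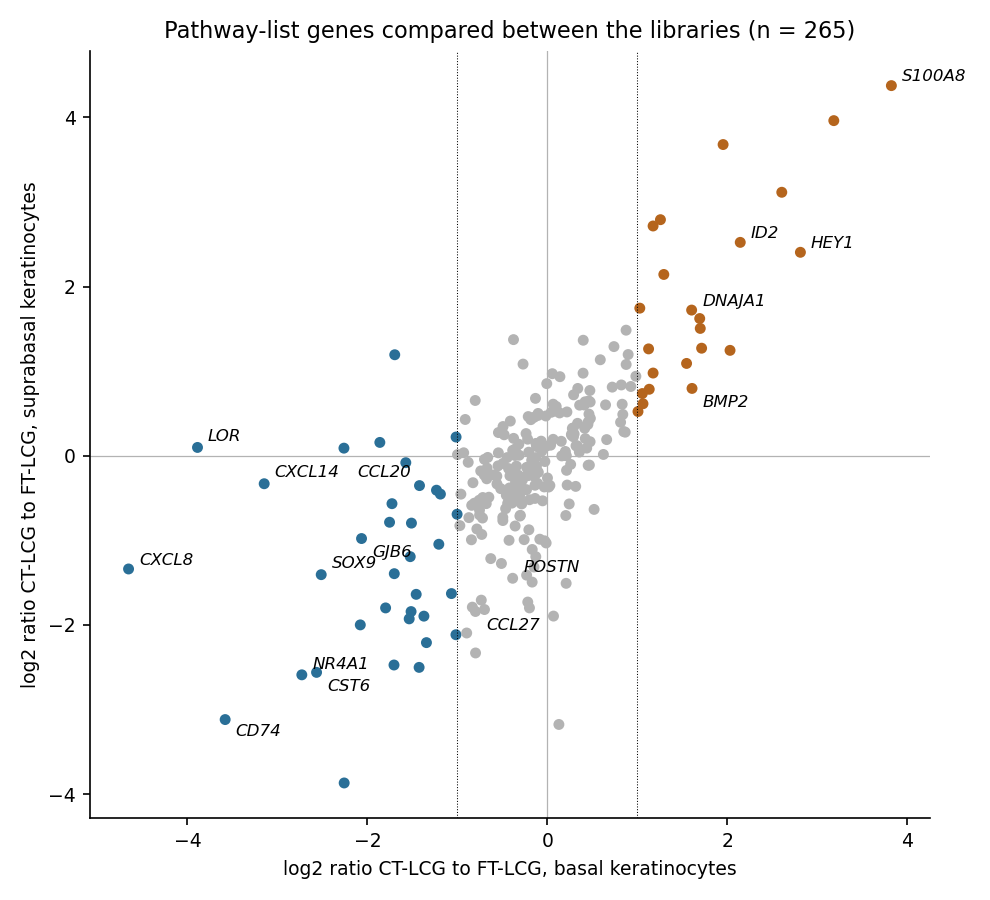
Log2 ratio of CT-LCG to FT-LCG in basal (x axis) and suprabasal keratinocytes (y axis) for 265 genes of the pathway lists. Brown points are at least 2-fold higher in CT-LCG basal cells (23 genes), blue points at least 2-fold higher in FT-LCG (35 genes), and dotted lines mark that level. S100A8 is higher in CT-LCG in both cell sets, CXCL14 differs more in basal than in suprabasal cells, and the place of LOR rests on 1 cell in each library.

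Among basal keratinocytes of 1 library, a few genes varied far more than counting would give. After thinning, 550 genes had a mean of at least 0.5 UMI a cell, and their median ratio of variance to mean was 1.48 for CT-LCG and 1.38 for FT-LCG. Ranking genes by the smaller ratio was a choice added after the data had been seen. KRT14 led with 23.9 and 33.4, followed by LOC102177275 (16.2 and 40.6), LOC102179515 (15.7 and 18.6), CCL27 (14.9 and 22.6), the heat shock gene HSPA6 (15.0 and 13.6) and KRT5. The immediate early genes FOS (13.0 and 20.1), JUN (8.37 and 8.64) and JUNB (8.57 and 7.94) were also among the first 12. POSTN stood at 6.35 and 7.68.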

How the data were processed

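The authors deposited counts of UMIs per gene and barcode, not normalized, both libraries in 1 matrix, with a list of the cells they kept and the library of each. Their stated limits were at least 500 genes and at most 10% mitochondrial genes a cell. Every barcode with over 500 genes was on the list, and 0 of the features used here matched a mitochondrial gene of the RefSeq table, so the second limit was not checked. The file header names Cell Ranger 3.0.2. The submitters' processing notes name Cell Ranger, bcl2fastq, Seurat 3.1.1 and the builds GRCh38 and GRCm38, with the goat build not given in the sources used here. RefSeq names were found for 27103 of the 27137 features, counted in 17299 barcodes. No genome was used, so no coordinate or sequence is given.

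Barcodes were selected by the rule above, and counts were summed over cells within each library and divided by the summed UMIs (levels per 10000). Exact Poisson intervals were given for levels, Clopper-Pearson intervals for shares and conditional binomial intervals for ratios. No caller of doublets was run. The cells with the most UMIs (5%) and those with other types' markers were left out as alternatives. Sums per gene were not tested, since each fibre type has 1 library. Cells were thinned to 3000 UMIs with a fixed seed for shares, correlations and variances. The members, markers and gene lists were chosen with earlier results of these data known. Named genes were the 5 markers, the 10 most abundant in each library, the 10 with the largest ratio each way in each comparison (between libraries, among those with 200 UMIs), and list members with 100 UMIs in the basal cells of both libraries together. Those with fewer UMIs, MMP1, MMP7, SRGN, CD207, MGST1, TCHH, KRT25, ALAS2, THY1, LOC102177275, HSPA6 and the genes ranked against outer root sheath and cycling cells were named after their values were seen. Calculations were made in Python 3.11.15 with numpy 2.4.6, scipy 1.17.1 and pandas 2.3.3, and the ratios were tested on simulated counts with known changes. Some genes that the naming rule picks are not reported here.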

Additional observations from a re-analysis of the deposited data

Results flagged for a closer look

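LOC102185235, LOC108635596 and LOC108635658 were lower in basal than in suprabasal keratinocytes of CT-LCG and higher in FT-LCG, and the difference between the libraries was not tested. Their log2 ratios were -7.45 and 2.26, -7.33 and 1.54, and -7.23 and 1.59. CT-LCG basal cells held 2, 4 and 6 UMIs of them, and FT-LCG basal cells 1591, 2453 and 2653. The same FT-LCG cell held 96.0%, 94.1% and 94.8% of these FT-LCG UMIs and also the most LOR UMIs. That cell had 43939 UMIs, 4150 genes and a keratin share of 98.0%. Without this cell, left out after the data had been seen, the FT-LCG ratios were -2.38, -2.54 and -2.68, the same sign as in CT-LCG. The CT-LCG ratios rest on 1 cell too: 1 suprabasal cell, with 121348 UMIs and 5853 genes, held 92.6%, 95.1% and 94.9% of the CT-LCG suprabasal UMIs of these genes. Without it, also left out after the data had been seen, the CT-LCG ratios were -3.70, -3.01 and -2.95. LOC108635656, LOC108635659 and IL37, which also had opposite signs, had 94.0%, 93.4% and 87.1% of their FT-LCG UMIs in that cell and ratios of -2.94, -2.61 and -1.55 without it. The CT-LCG suprabasal cell held 91.2%, 94.3% and 99.2% of their UMIs in its set. Without it the CT-LCG ratios of LOC108635656 and LOC108635659 were -2.02 and -2.91. IL37 then had 0 basal and 5 suprabasal UMIs in CT-LCG, too few for a ratio. LSP1 (-2.17 and 1.26) and LOC102169753 (-1.37 and 1.12) had opposite signs as well, from 8 and 3 UMIs in CT-LCG basal cells. No 1 cell held more than 6.31% of the LSP1 UMIs of FT-LCG basal cells or 5.58% of those of CT-LCG suprabasal cells.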

How the results depend on the processing

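No marker ratio changed sign under any of the alternatives run, but the rule fixed the signs of the KRT14 and KRT5 ratios of basal to suprabasal cells. Bins of the keratin share were not among these alternatives, and in them ratios between the libraries did change sign. CCL27 was at -0.80 over all basal cells and at 0.44 in those with a share of 75 to 85%. COL17A1 was at -0.17 and at 0.16 (-0.01 to 0.33). The share of kept cells in the gate was 24.1% in FT-LCG with a minimum of 2000 UMIs, 5.00% for CT-LCG and 18.1% for FT-LCG with 6000, 7.20% and 25.1% with a keratin share of at least 60%, and 3.34% and 18.8% with 90%. With cells thinned to 3000 UMIs, 169 genes were higher and 388 lower in basal than in suprabasal cells, as fewer genes reach the count minimum. With a minimum of 200 UMIs, 274 genes were higher in basal than in suprabasal cells, and 372 were higher in the basal cells of CT-LCG and 401 in those of FT-LCG. With no minimum the numbers were 2623, 3342 and 1626. Leaving out 1 library and reading the other alone gave 949 to 2110 genes higher and 937 to 1009 lower. After 10% of each sum was taken off as free RNA, modelled on the barcodes the authors did not keep, the suprabasal sums of POSTN and CCL27 in both libraries and of KRT5 in CT-LCG fell under 3 UMIs, so no ratio is given for them. Without each gene's highest cell, an alternative chosen after seeing the data that takes off more from the 200 CT-LCG cells, 519 genes were higher in the basal cells of CT-LCG and 1156 in those of FT-LCG. Without the 1 CT-LCG suprabasal cell and the 1 FT-LCG basal cell with the most LOR UMIs, left out after the data had been seen, 702 genes were higher and 680 lower in basal than in suprabasal cells. No paired analysis was possible because each fibre type has 1 library. The smaller UMI sum of the 200 CT-LCG basal cells limits what can be read at 0. A gene at 0 there may reach 0.0117 UMIs per 10000 by a floor of 3 counts and 0.0144 by the exact interval.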
